A study of Homo sapiens with 156 samples.

Results

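The early transcript response of MV411 cells to the DNMT1 inhibitor GSK032 was followed in 8 of the 156 libraries of the series, those of cells given 400 nM GSK032 (GSK3685032) or the solvent DMSO (0 nM) for 1 or 2 days, with 2 libraries per group. MV411 is an established human acute myeloid leukemia line of myelomonocytic character with a rearranged KMT2A gene and an activated FLT3 receptor. The study gave the same compound, decitabine (DAC) and further GSK compounds to MV411 and the AML lines THP1 and NOMO1 over a range of doses and days. Cells were plated a day before the agent was added and total RNA was sequenced. Levels are given as FPKM, fragments scaled to transcript length and library size, and changes as differences of log2(FPKM + 0.5) with their standard errors, a scale that understates the change of genes at low levels. A gene was called where the p-value adjusted by Benjamini and Hochberg over all genes tested was below 0.05 and the change at least 1. For comparison, 4 libraries of MV411 with 400 nM DAC on days 1 and 2, and the 8 libraries of GSK032 and DMSO from days 4 and 6, were used as well, together with 4 libraries at day 2 of GSK862 (GSK3484862, 1000 nM) and GSK477 (GSK3510477, 10000 nM).

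DNMT1 copies the methyl marks of CpG sites onto the new DNA strand after replication, guided by UHRF1. When it is blocked, marks are lost as cells divide, so that promoters lose methylation gradually. Germline genes, which are kept silent by promoter methylation in most somatic cells, are a well-known readout of such loss. DAC is built into DNA, where it captures DNMT1, while GSK032 inhibits the enzyme without being built into DNA.

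All 8 markers set for the line were present in every early library, among them LYZ at 1236 to 1975 FPKM, FLT3 at 140 to 171, CD33 at 75.5 to 94.9 and HOXA9 at 24.1 to 46.9. The 14 markers of T, B, erythroid, epithelial, stromal and endothelial cells other than PECAM1 summed to 1.38 to 1.99 FPKM in the 4 DMSO and 2 day 1 GSK032 libraries and to 2.52 and 2.94 FPKM in the day 2 GSK032 libraries. ALAS2 was at 0 in all 8 libraries, while the platelet and endothelial marker PECAM1 stood at 22.3 to 37.4 FPKM. The part of other cells in the results was not tested, and in bulk RNA more cells of a kind and more RNA per cell cannot be told apart. DNMT1 itself, the target of the compound, was at 116 to 149 FPKM in DMSO and at 125 to 139 with GSK032, with a change of -0.05 ± 0.13 at day 2 (adjusted p = 0.891). The low values of genes with 1 annotated transcript corresponded to 52400000 to 81000000 fragments per library.

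The leading genes of the response include a divergent pair of testis histone genes, and the sequence between their starts is given because both genes were called higher at day 2. It spans chr6:25726563-25726776 (GRCh38.p14, plus strand), 214 bases from HIST1H2AA, read leftwards, to HIST1H2BA, read rightwards. The upstream 250 bases of HIST1H1T (chr6:26108136-26108385, minus strand) and of PNMA5 (chrX:152994117-152994366, minus strand) are given beside it, as another testis histone and as a cancer-testis gene that was low at day 1 and high at day 2. All come from RefSeq and are written 5′ to 3′, with the CG sites, the places where methylation is held, in capitals.
HIST1H2AA and HIST1H2BA: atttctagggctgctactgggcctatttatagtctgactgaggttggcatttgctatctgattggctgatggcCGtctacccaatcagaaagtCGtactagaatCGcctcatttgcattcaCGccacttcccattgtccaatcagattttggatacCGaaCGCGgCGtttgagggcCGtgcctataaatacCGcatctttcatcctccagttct
HIST1H1T: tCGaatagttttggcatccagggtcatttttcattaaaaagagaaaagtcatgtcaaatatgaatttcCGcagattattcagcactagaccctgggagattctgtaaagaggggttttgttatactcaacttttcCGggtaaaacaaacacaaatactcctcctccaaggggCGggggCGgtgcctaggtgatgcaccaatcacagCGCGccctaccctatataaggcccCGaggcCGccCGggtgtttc
PNMA5: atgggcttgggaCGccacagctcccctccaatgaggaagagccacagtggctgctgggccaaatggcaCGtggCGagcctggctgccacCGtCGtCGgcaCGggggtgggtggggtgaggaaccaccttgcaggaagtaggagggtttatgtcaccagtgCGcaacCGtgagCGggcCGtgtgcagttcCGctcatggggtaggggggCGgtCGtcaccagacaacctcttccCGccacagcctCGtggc
The stretch between the paired histone genes held 10 CG sites, the HIST1H1T stretch 10 and the PNMA5 stretch 16. At least 10 stood in 52.1% and at least 16 in 40.9% of the 34796 upstream stretches of 250 bases in the RefSeq table. The stretch between the histone genes also held 3 matches, on either strand, of CCAAT, 1 of ATTTGCAT, the octamer of histone promoters, and 2 of TATAAA. Those letters were found in 32.0%, 1.62% and 10.8% of all upstream stretches. HIST1H1T and PNMA5 each held 1 match of CCAAT and none of the others. The RefSeq table held a window for 100 of the 160 genes called higher at day 2 (62.5%), too few for a comparison of CG content.

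After 2 days of GSK032 most calls were upward, and the largest changes were those of testis histones, cancer-testis genes and single genes such as TKTL1 and ZNF595. Against DMSO of the same day, 160 genes were called higher (0.982% of the 16290 tested) and 13 lower (0.0798%). Of the 160, 120 were protein-coding, 20 long noncoding RNAs and 14 short RNAs or genes without annotation. In 158 of the 160, both day 2 GSK032 libraries lay above all 4 DMSO libraries, as was so for 11.9% of all genes tested. The call rests on the same libraries and so favours this order, which adds no separate evidence. A mean DMSO level below 1 FPKM was found in 81 of the 160 genes, and 58 passed the filter on low values only through the 2 day 2 GSK032 libraries. The number of calls fell without any 1 library of a day 2 group, the lone library then being assumed to vary like the other groups. The filter on low values was applied anew without that library. Genes that had passed it only through the day 2 GSK032 pair could then leave the test. How much of the fall came from this was not counted.

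HIST1H2BA encodes the testis form of histone H2B, which replaces the ordinary form during sperm formation. It was listed at 0.0721 and 0 FPKM in DMSO of day 1 and at 0.0755 and 0.0924 in DMSO of day 2. With GSK032 it stood at 10.3 and 6.65 FPKM at day 1 and at 64.6 and 39.1 at day 2. The GSK032 libraries were thus above all DMSO libraries on both days, and the day 2 pair above the day 1 pair. The change was 4.04 ± 0.29 at day 1 (adjusted p = 0.057) and 6.44 ± 0.29 at day 2 (adjusted p = 0.00104).

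Its divergent neighbour HIST1H2AA (chr6:25726132-25726527), the testis form of H2A, had 0 to 0.0752 FPKM in the 4 DMSO libraries. It had 3.52 and 1.70 FPKM at day 1 of GSK032 and 18.7 and 10.5 at day 2, a change of 4.76 ± 0.39 at day 2 (adjusted p = 0.00666). Here too the libraries of the treated and solvent groups did not overlap on either day. HIST1H1T, the linker histone of spermatocytes, went from 0.335 to 0.820 FPKM in DMSO to 4.72 and 8.03 at day 1 and 61.3 and 79.6 at day 2 (change 6.07 ± 0.34, adjusted p = 0.00191). HIST3H3, the testis form of H3, reached 11.9 and 8.01 FPKM at day 2 from at most 0.126 in DMSO (change 4.20 ± 0.35, adjusted p = 0.00728). For all 4 testis histones both GSK032 libraries lay above every DMSO library already at day 1, as was so for 6.76% of all genes tested. The choice of these genes by their changes favours this order. HIST1H2AA, HIST3H3 and the histones of the next paragraph other than HIST1H1A were named after their values were seen, and reads from near-identical histone genes may be shared among them.

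Most ordinary histone genes were not called. Of 20 listed replication-linked histone genes, which supply chromatin in S phase, 1 was called higher at day 2 and none lower. Over all genes tested 0.982% were called higher. The median of the list was -0.20 beside -0.09 over all genes tested. The called member, HIST1H1A, a linker histone, rose from 17.9 to 20.9 FPKM in DMSO to 107 and 114 at day 2 (change 2.42 ± 0.14, adjusted p = 0.00215). Its day 1 libraries, at 29.9 and 40.0 FPKM, lay between. HIST1H3E, an H3 gene, was higher at day 2 with 230 and 192 FPKM against 10.1 to 14.1 in DMSO, and H1F0, the linker histone of differentiated cells, with 21.8 and 17.8 against 4.34 to 4.92. H2B pseudogene HIST2H2BA was also called.

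**Figure D1:**
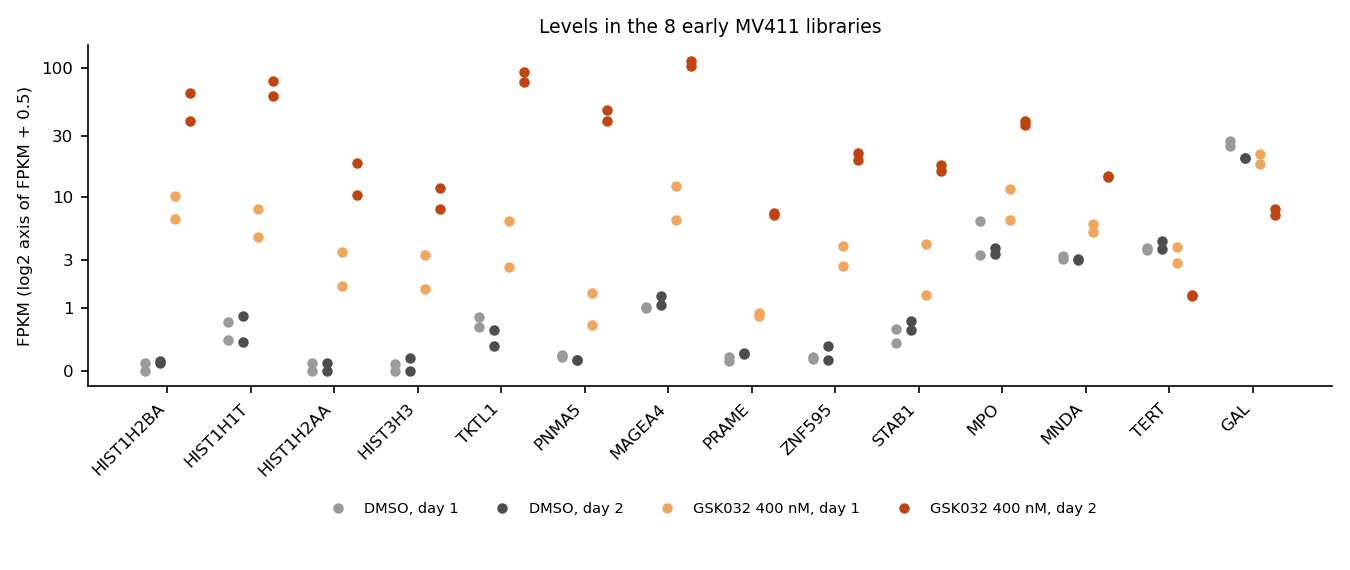
Level of 14 genes (FPKM on a log2 axis of FPKM + 0.5) in each of the 8 libraries, 1 point per library, coloured by agent and day. For the 4 testis histones all GSK032 points lie above all DMSO points, while TERT and GAL are lowest at day 2 of GSK032.

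Germline and cancer-testis genes were among the calls. These genes are active in germ cells and placenta and silent in most other tissues. Of 64 listed genes 30 were tested, of which 8 had a mean of at least 1 FPKM in DMSO, so the other tested members passed the filter through libraries in which they were high. At day 2, 19 were called higher and none lower, with a median of 2.42 over the 30 tested, and 10 of the 19 lie on chromosome X. Over all genes 0.982% were called higher. The filter favours the count in this list, as 16 of the 19 had a mean of at most 1 FPKM in DMSO. None was called at day 1, when the median over the 30 was 0.11. In 8 of the 19 both day 1 GSK032 libraries lay above all 4 DMSO libraries, and in all 19 both day 2 libraries did. Over all genes tested these shares were 6.76% and 11.9%, but the choice of the 19 by their day 2 change favours the day 2 order.

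TKTL1 (chrX:154295671-154330350), a relative of the sugar-handling enzyme transketolase, was at 0.570, 0.796, 0.525 and 0.277 FPKM in DMSO, the first pair from day 1. It was at 2.59 and 6.36 FPKM at day 1 of GSK032 and at 78.2 and 93.0 at day 2, a change of 6.59 ± 0.37 at day 2 (adjusted p = 0.00204). PNMA5 (chrX:152988824-152994127), of the paraneoplastic Ma family, was at 0.102 to 0.165 FPKM in DMSO, 0.626 and 1.47 at day 1 and 47.9 and 39.6 at day 2 (change 6.19 ± 0.28, adjusted p = 0.00104). In both genes the larger step came between day 1 and day 2. MAGEA4 (chrX:151912509-151925170), a MAGE antigen, had 0.999 to 1.37 FPKM in DMSO, 6.56 and 12.3 at day 1 and 114 and 104 at day 2 (change 6.00 ± 0.27, adjusted p = 0.00104). PRAME, an antigen that represses retinoic acid signalling, rose to 7.43 and 7.21 FPKM at day 2 from 0.0993 to 0.179 in DMSO (change 3.54 ± 0.21, adjusted p = 0.00217). Reads of MAGE, RHOXF2, PAGE and TUBA3 genes may be split between near-identical copies, so their levels are uncertain.

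Several called germline genes act in the piRNA pathway, which silences transposons in germ cells, and were named after their values were seen. MAEL stood at 6.38 and 5.55 FPKM at day 2, TDRD9 at 4.4 and 4.86, and DAZL, an RNA-binding protein of germ cells, at 3.58 and 3.37. In DMSO the highest values were 0.0944 FPKM for MAEL, 0.268 for TDRD9 and 0.137 for DAZL, and the day 1 GSK032 libraries reached 0.237, 0.274 and 0.0343. Their day 1 changes were 0.30 for MAEL, -0.02 for TDRD9 and -0.10 for DAZL, each with an adjusted p of 1, against 3.51, 3.25 and 2.98 at day 2. At day 1 the GSK032 libraries overlapped the 4 DMSO libraries for all 3 genes, and at day 2 they did not.

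**Figure D2:**
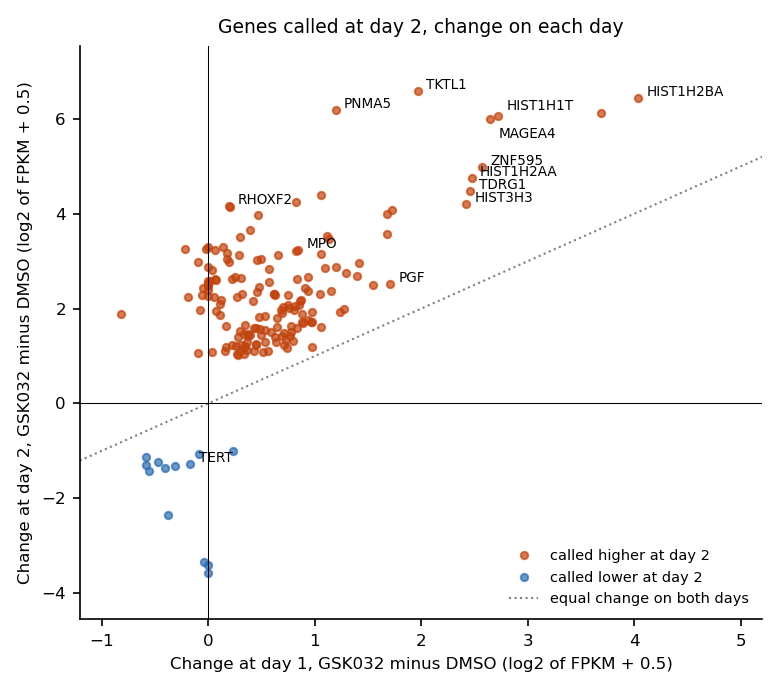
Change at day 1 (x) and day 2 (y), GSK032 minus DMSO on log2(FPKM + 0.5), for the 158 genes called higher and 13 called lower at day 2, without the Y chromosome; the dotted line marks equal changes. All 158 genes called higher lie above the line, which their choice by the day 2 change favours, and HIST1H2BA has the largest day 1 change of those with a symbol, 4.04.

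Myeloid genes were among the calls as well. Of 18 tested monocyte and macrophage genes 3 were called higher at day 2 and none lower (median 0.63), beside 0.982% called higher and a median of -0.09 over all genes. MNDA, a nuclear antigen of myeloid cells, rose from 3.01 to 3.27 FPKM in DMSO to 5.16 and 6.11 at day 1 and 14.6 and 14.4 at day 2 (change 2.09 ± 0.11, adjusted p = 0.00165). CYBB, the oxidase subunit of phagocytes, changed by 1.65 ± 0.21 (adjusted p = 0.0244) and CD68, a lysosomal protein of macrophages, by 1.1 ± 0.14 (adjusted p = 0.0233). Of 10 granule genes of promyelocytes only MPO, myeloperoxidase, was called: 3.30 to 6.46 FPKM in DMSO, 6.53 and 11.7 at day 1 and 39.2 and 36.4 at day 2 (change 3.24 ± 0.35, adjusted p = 0.0146). The calls of CYBB, CD68 and MPO were each lost without at least 1 library, with adjusted p up to 0.247, 0.213 and 0.144. The scavenger receptor STAB1, named after its values were seen, went from 0.322 to 0.691 FPKM to 17.9 and 16.2 at day 2 (change 3.99 ± 0.40, adjusted p = 0.0122).

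Of 8 tested erythroid and megakaryocyte genes, KLF1 and NFE2, transcription factors of red cells and platelets, were called higher, with changes of 1.93 ± 0.24 (adjusted p = 0.0233) and 1.62 ± 0.11 (adjusted p = 0.00391). Over all genes 0.982% were called higher. The single calls in the cytokine and zinc finger lists describe those genes, not the lists. KLF1 reached only 4.62 and 3.21 FPKM, and the erythroid marker gene ALAS2 was at 0 throughout. Both calls were lost without at least 1 library, with adjusted p up to 0.239 for KLF1 and 0.0667 for NFE2. Among 11 inflammatory cytokines the monocyte attractant CCL2 was called, at 7.36 and 7.58 FPKM against 2.39 to 3.07 in DMSO (change 1.33 ± 0.17, adjusted p = 0.0257, up to 0.214 without 1 library). Of 37 listed and tested zinc finger genes of chromosomes 4p and 19, ZNF595 was called. Outside that list, 6 more genes with ZNF symbols on chromosome 19 were called higher, 1 of them the noncoding ZNF582-AS1, with ZNF841 at 1.25 and ZNF544 at 1.14, as was the zinc finger gene ZIK1 (2.28). ZNF595 lies near the end of chromosome 4 (chr4:53285-88211) and went from 0.101 to 0.270 FPKM in DMSO to 2.65 and 3.93 at day 1 and 19.7 and 22.3 at day 2 (change 4.98 ± 0.23, adjusted p = 0.00104).

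By chromosome, 23 of 479 tested genes on X were called higher (4.8%), against 0.982% over all chromosomes. The share was 10% on Y (2 of 20), 2.03% on chromosome 22 (8 of 394), 1.68% on chromosome 20 (7 of 416) and 1.43% on chromosome 19 (17 of 1186). Genes silent in all early libraries were not tested, while 58 of the 160 passed the filter only through the day 2 GSK032 libraries. The shares thus depend on the filter and are not shares of all genes of a chromosome. The day 2 list also held genes of uncertain counting, among them antisense genes such as PAX8-AS1, since the use of strand is not given in the sources used here. VCY, a Y-linked gene with near-identical copies, was called at day 2 as well (change 6.11).

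Interferon and cell cycle lists held no called gene in these 2 days, a count near the background of 0.982% called higher and 0.0798% lower over all genes. Of 33 tested interferon-stimulated genes, none was called at day 2 and their median was 0.11. BST2 changed by -0.15 ± 0.16 and IFITM2 by -0.01 ± 0.25, both within the spread between libraries. Of 23 genes of antigen presentation none was called (median 0.345); HLA-B was at 538 and 496 FPKM against 355 to 398 in DMSO, a change of 0.47 ± 0.10 that did not pass (adjusted p = 0.0915). None of 32 S-phase genes (median -0.20), 31 mitosis genes (median -0.06) or 29 p53 targets (median -0.06) was called. The same held for 27 genes of cholesterol and fatty acid synthesis, 17 KMT2A target and stem-cell genes and 18 myeloid transcription factors, with medians of -0.03, -0.31 and -0.03.

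Among the stem-cell genes, MYC was at 144 and 156 FPKM at day 2 against 215 to 269 in DMSO, a change of -0.64 ± 0.10 that did not pass (adjusted p = 0.0522). Of the methylation machinery, DNMT3A changed by -0.36 ± 0.09 (adjusted p = 0.134), DNMT3B by 0.34 ± 0.12 (adjusted p = 0.232) and UHRF1 by 0.01 ± 0.15 (adjusted p = 0.974). None of the 13 tested writers and partners of methylation was called.

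**Figure D3:**
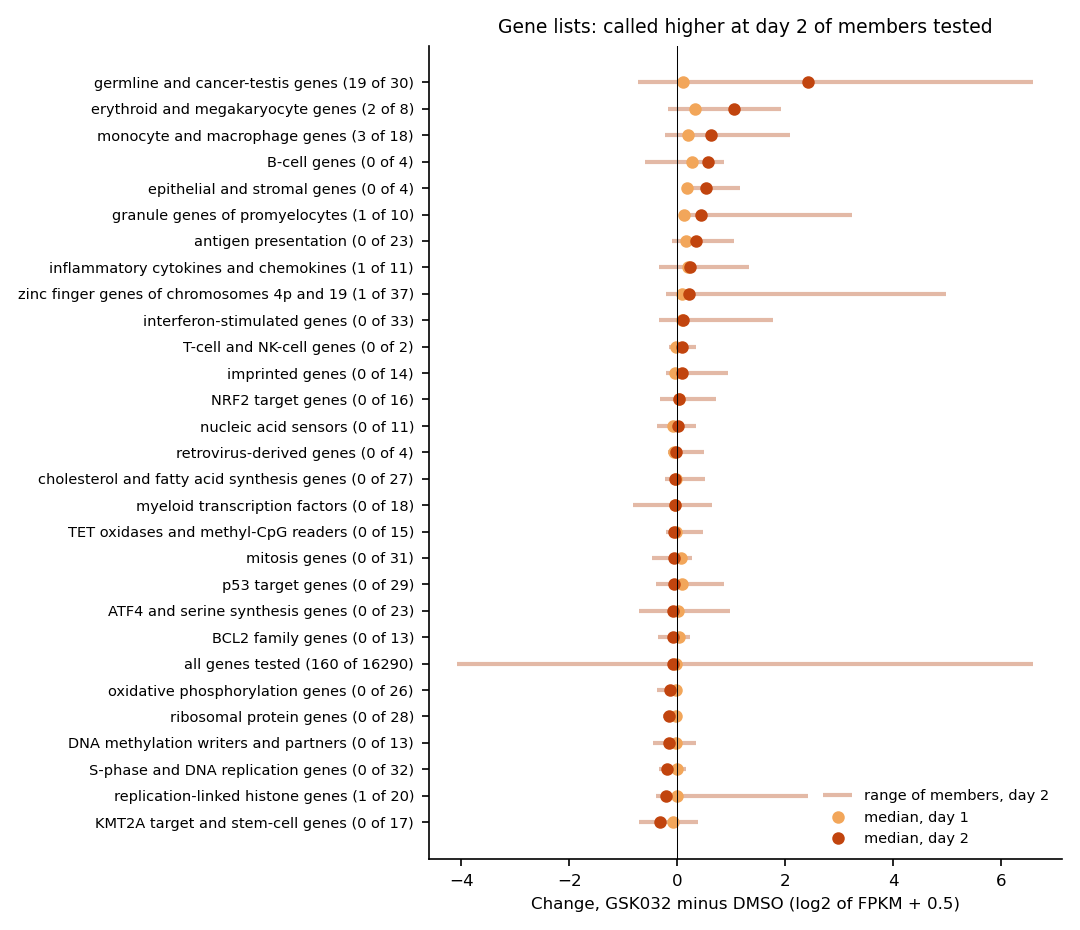
Median change of each of 28 gene lists and of all genes tested at day 1 and day 2 (log2 of FPKM + 0.5), with the range of members at day 2 as bars; the numbers give members called higher at day 2 of those tested. The germline and cancer-testis median is 0.11 at day 1 and 2.42 at day 2; most of its members passed the filter through libraries in which they were high, so it is not ranked against the other lists.

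The 13 genes called lower at day 2 each had a mean of at least 1 FPKM in DMSO. In 11 of them both day 2 GSK032 libraries lay below all 4 DMSO libraries, as in 24.2% of all genes tested, an order that the call itself favours. The neuropeptide gene GAL went from 25.4 and 27.8 FPKM at day 1 and 20.5 and 20.4 at day 2 of DMSO to 21.8 and 18.3 at day 1 and 8.01 and 7.19 at day 2 of GSK032 (change -1.37 ± 0.11, adjusted p = 0.00666). C9orf116 changed by -1.43 ± 0.12 (adjusted p = 0.00728). Both calls were lost without at least 1 library, with adjusted p up to 0.0806 and 0.0847.

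TERT, the catalytic subunit of telomerase, was named after its values were seen. It was at 3.69 to 4.39 FPKM in DMSO, 3.85 and 2.79 at day 1 and 1.34 and 1.4 at day 2 (change -1.28 ± 0.17, adjusted p = 0.0282). Only its day 2 GSK032 pair lay below the DMSO libraries. BEX1 and NKD2, a regulator of WNT signalling, also fell, to 83.7 and 89.0 FPKM from 213 to 289, and to 48.4 and 50.0 from 112 to 144. The largest falls among genes with a symbol, SNORA25 (-3.41), MIR1290 (-3.35) and the pseudogene MTND5P20 (-2.36), belong to short or copied RNAs at 0 to 7.73 FPKM in the early libraries. SNORA25 was at 0 in both DMSO libraries of day 1, so that its fall is set by the DMSO pair of day 2. The MTND5P20 call was lost without any 1 library (adjusted p up to 0.182) and that of SNORA25 without either day 2 GSK032 library (0.108 and 0.0686). With the spread of all 52 libraries the adjusted p was 0.0507 for MTND5P20 and 0.147 for SNORA25.

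With both days in 1 fit and day as a covariate, no gene was called in either direction by limma (0%), while 2525 had an unadjusted p below 0.05 (15.5%). In this fit any difference between the day 1 and day 2 response counts as spread. Among genes with a symbol the smallest p-values belonged to HIST1H2BA (change 5.24 ± 0.48, adjusted p = 0.06), TREM2, a lipid receptor of macrophages (1.63 ± 0.16, adjusted p = 0.06), and PGF, placental growth factor (2.11 ± 0.22, adjusted p = 0.06). TREM2 was at 6.05 to 7.98 FPKM in DMSO, 16.5 and 20.8 at day 1 and 26.9 and 25.7 at day 2, with changes of 1.27 at day 1 and 1.99 at day 2 and no overlap with DMSO on either day. With the spread taken from all 52 MV411 libraries, 172 genes were called higher (1.06%) and 10 lower (0.0614%). That fit also gave each group its own mean, so differences between the days no longer counted as spread. With a pseudocount of 0.1, 14 genes were called higher and 1 lower.

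At day 1 alone 1 gene was called higher (0.00614%) and none lower, with 780 genes at an unadjusted p below 0.05 (4.79%). The called gene, ENSG00000207643, has no entry in the annotation. It was at 0 in all 4 DMSO libraries, at 5.61 and 6.31 FPKM at day 1 and at 37.0 and 32.4 at day 2. Of the 160 genes called higher at day 2, 142 had a day 1 change above 0, with a median of 0.52 beside -0.02 over all genes tested. Next by p at day 1 came HIST1H2BA, TDRG1 (2.46 ± 0.20, adjusted p = 0.0723) and ZNF595 (2.57 ± 0.23, adjusted p = 0.0975). With the spread of all 52 libraries 30 genes were called higher at day 1 (0.184%) and 1 lower, among them the 4 testis histones, MAGEA4, PNMA5, TKTL1, PRAME, ZNF595, STAB1, TREM2, PGF and CHI3L1.

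Whether the response differed between the days was tested as the day 2 change minus the day 1 change. With 8 libraries only VCY was called (6.29 ± 0.32, adjusted p = 0.0144, 0.00614% of genes), and 914 genes had an unadjusted p below 0.05 (5.61%). The VCY call was lost with the replicate number as a block (adjusted p = 0.0806), with a pseudocount of 0.1 (0.0911) and without 5 of the 6 libraries whose removal could be fitted (up to 0.126). PNMA5 differed by 4.99 ± 0.40 (adjusted p = 0.0823), TKTL1 by 4.62 ± 0.53 (adjusted p = 0.119), and HIST1H2BA by 2.41 ± 0.41 (adjusted p = 0.248). With the spread of all 52 libraries 121 genes were called with a larger change at day 2 (0.743%) and 4 with a smaller one (0.0246%). The adjusted p then was 2.48e-12 for PNMA5, 4.22e-08 for TKTL1 and 0.00272 for HIST1H2BA. TREM2 and PGF did not pass in that fit either (differences of 0.72 and 0.81, adjusted p = 0.394 and 0.501). DMSO of day 2 against DMSO of day 1 gave no call by limma, with 759 genes at an unadjusted p below 0.05 (4.66%).

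The later days show how the leading genes went on. HIST1H2BA was at 27.8 and 18.2 FPKM at day 4 and 17.4 and 15.8 at day 6 of GSK032, below its day 2 pair of 64.6 and 39.1. TKTL1 went up to 288 and 283 FPKM at day 4 and 552 and 421 at day 6, and MAGEA4 to 158 and 139 and then 280 and 270. The mean change against DMSO of days 4 and 6 minus that of days 1 and 2 was 3.77 ± 0.33 for TKTL1 (adjusted p = 2.26e-05), 3.17 ± 0.21 for PNMA5 (adjusted p = 4.99e-06) and 2.34 ± 0.22 for MAGEA4 (adjusted p = 3.37e-05). For HIST1H2BA it was -0.76 ± 0.28 (adjusted p = 0.0716), and for HIST1H1T -0.01, with an interval of -0.66 to 0.63. For each of these genes the early mean includes day 1, when the change was smaller than at day 2. The late minus early differences thus do not measure the step after day 2. By group mean the testis histones were highest at day 2, which these differences do not show. The difference between the histones and the other genes was not itself tested. Over all 18920 genes tested, 1078 (5.70%) had a higher and 615 (3.25%) a lower late than early change.

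Interferon and cell cycle genes were among those called in that comparison. IFI27, an interferon-induced mitochondrial protein, was at 0.777 and 0.616 FPKM at day 2, within its DMSO range of 0.540 to 0.950, and did not pass the filter of the early fit. It was at 48.9 and 48.1 FPKM at day 4 and 790 and 1454 at day 6 of GSK032 (late minus early 5.92 ± 0.28, adjusted p = 1.03e-06). Of the 33 interferon-stimulated genes that passed the filter of the early fit, 17 were called with a higher late than early change and none with a lower one (median 1.00, over all genes 0.03). The list's other members passed only with the late libraries added and are not counted. Of 32 S-phase genes 24, of 31 mitosis genes 29 and of 20 replication-linked histone genes 19 had a lower late change, with none higher (medians -1.14, -1.41 and -1.68). Over all genes tested 5.70% were called with a higher and 3.25% with a lower late change. At day 4 against day 2 alone, a comparison added after seeing the data, 417 genes had a higher change (2.20%) and 263 a lower one (1.39%).

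**Figure D4:**
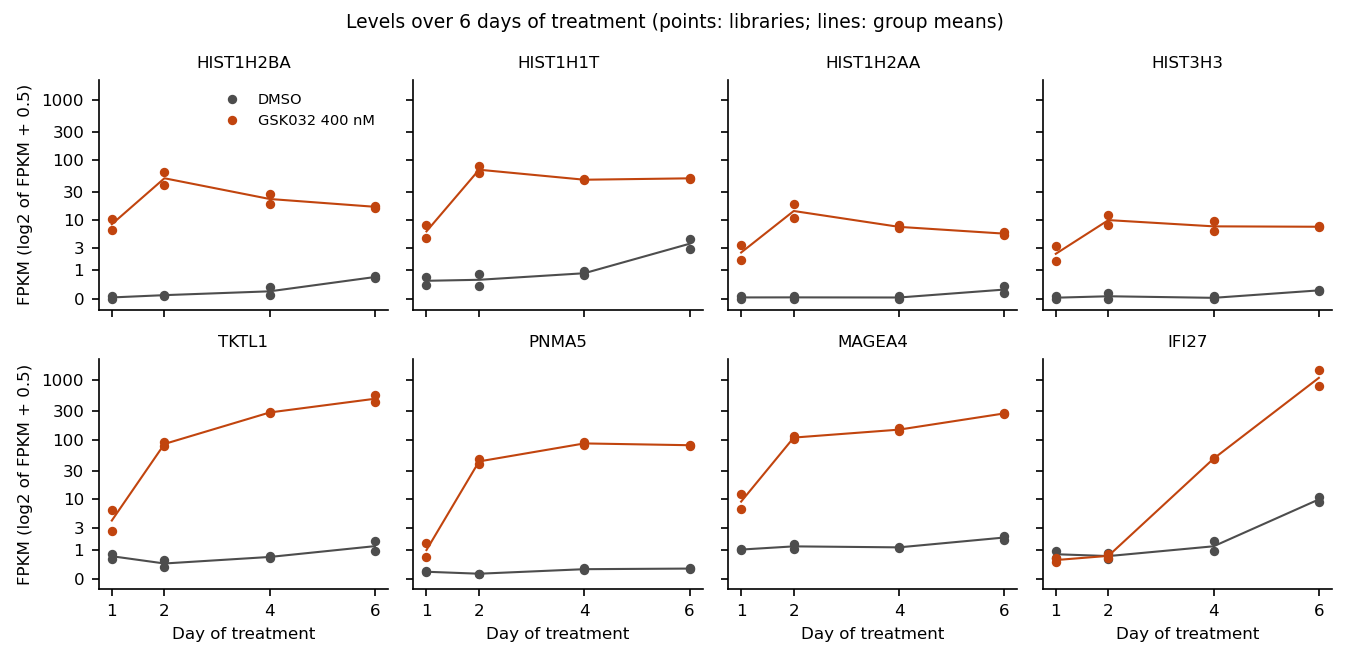
FPKM (log2 axis of FPKM + 0.5) of 8 genes over days 1, 2, 4 and 6 with DMSO or 400 nM GSK032; points are libraries and lines group means. By group mean the 4 testis histones are highest at day 2 of GSK032, TKTL1 and MAGEA4 at day 6, and IFI27 separates from DMSO at day 4.

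GSK032 was set against DAC at the same dose and days to see where the early responses of the compounds differed, as 1 comparison of 1 pair of compounds. Over days 1 and 2 together 4 genes were called higher with GSK032 than with DAC (0.0242% of 16506) and 16 lower (0.0969%). The H2B gene HIST3H2BB was at 19.5 to 25.1 FPKM with GSK032 and 8.52 to 11.5 with DAC (1.13 ± 0.11, adjusted p = 0.035). DMSO stood at 18.7 to 29.2, so the DAC libraries lay below both other groups. In the same way MVD, an enzyme of cholesterol synthesis, had 59.0 to 94.2 FPKM with GSK032, 26.8 to 38.6 with DAC and 59.6 to 84.9 with DMSO (1.07 ± 0.18, adjusted p = 0.0439). SGK1, a kinase induced by serum and glucocorticoids, had 1.1 to 1.9 with GSK032, 3.96 to 7.12 with DAC and 1.17 to 1.56 with DMSO (-1.51 ± 0.20, adjusted p = 0.035). With any 1 library left out, 0 or 1 genes were called higher and 0 to 3 lower.

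The testis histones HIST1H2BA, HIST1H2AA and HIST3H3 had the larger levels with GSK032. Their choice by their rise in the same day 2 GSK032 libraries favours this direction. Of the 158 genes called higher at day 2 outside the Y chromosome, 103 had the larger day 2 mean with GSK032. At day 2 HIST1H2BA was at 11.0 and 8.87 FPKM with DAC and at 64.6 and 39.1 with GSK032, a difference of 2.29 ± 0.37 (95% interval 1.38 to 3.20) that did not pass over all genes (adjusted p = 0.158). HIST1H2AA was at 2.87 and 2.74 FPKM with DAC (2.14 ± 0.40, adjusted p = 0.175) and HIST3H3 at 1.49 and 2.09 (2.18 ± 0.33, adjusted p = 0.148). In each of the 3 both GSK032 libraries lay above both DAC libraries. With 2 libraries per group such an order can arise by chance, and its share over all genes was not counted. HIST1H2AA and HIST3H3 were also named after their values were seen. For HIST1H1T, at 40.6 and 50.7 FPKM with DAC, the interval of the difference was -0.20 to 1.43, and for TKTL1, at 81.9 and 109, it was -1.31 to 1.01. PRAME, at 7.09 and 7.64 with DAC, had the narrow interval of -0.31 to 0.29. The day 2 comparison of the compounds was added after seeing the data and gave no call by limma (0%), with 1825 genes at an unadjusted p below 0.05 (11.1%), and 34 higher and 51 lower with the spread of all 52 libraries.

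**Figure D5:**
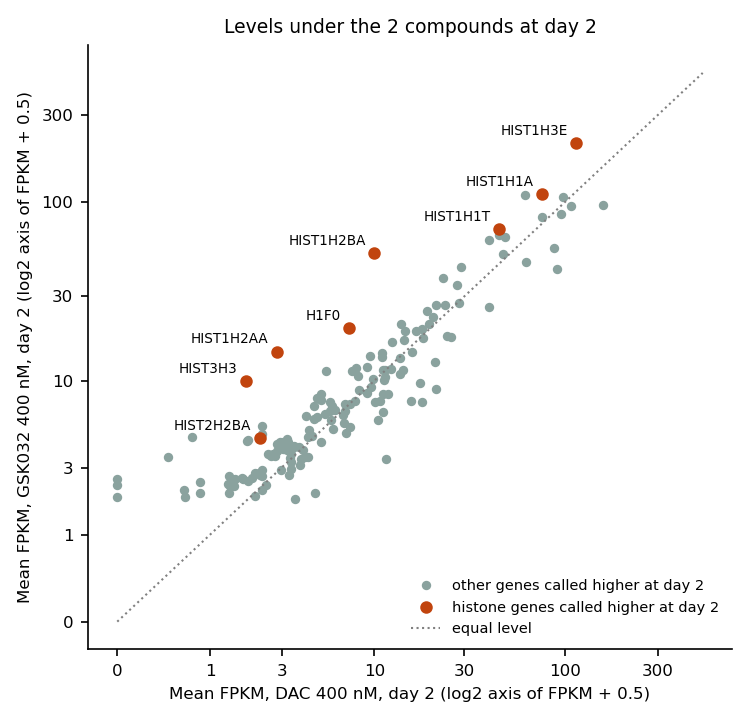
Mean FPKM at day 2 (log2 axes of FPKM + 0.5, n = 2) with DAC (x) and GSK032 (y) for the 158 genes called higher with GSK032 at day 2, without the Y chromosome; 8 histone genes are marked. HIST1H2BA, HIST1H2AA and HIST3H3 lie farthest above the dotted line of equal levels among the histones. Of the 158 genes, 103 have the larger mean with GSK032, which their choice by the day 2 GSK032 change favours.

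The other GSK compounds were given at other doses, so their values stand beside those of GSK032 without a comparison. At day 2 of 1000 nM GSK862, HIST1H2BA was at 27.7 and 17.8 FPKM, TKTL1 at 66.7 and 71.7, PNMA5 at 28.6 and 22.2 and MAGEA4 at 96.7 and 86.4. At day 2 of 10000 nM GSK477 the same genes were at 0.1 and 0.158, 0.407 and 0.649, 0.111 and 0.294, and 1.23 and 0.934 FPKM. Each of these GSK862 values lay above all early DMSO values of its gene. So did both GSK477 values of HIST1H2BA and the higher GSK477 value of PNMA5, but not those of TKTL1 and MAGEA4. The GSK477 values so placed were all below the filter minimum of 1 FPKM, and no effect is read from their order. None of the GSK477 values was above 1.23 FPKM. The share of all genes so placed was not counted.

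In THP1 and NOMO1, whose tables were normalized separately, the same genes stood at other levels at day 2 of 400 nM GSK032. HIST1H2BA was at 1.88 and 1.95 FPKM in THP1 and 1.1 and 1.36 in NOMO1. MAGEA4 was at 22.3 and 25.0 in THP1 and 1.46 and 1.58 in NOMO1, and PNMA5 at 2.76 and 3.52 and at 5.17 and 5.66. TKTL1 was at 182 and 218 FPKM in THP1 already with DMSO. No test was made across the lines.

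In the authors' deposited table of log2 fold changes, HIST1H2BA stood at 7.84 for day 1 and 9.17 for day 2, and PNMA5 at 2.80 and 8.73. For TKTL1 the authors' deposited table gave 2.72 and 7.76, and for MPO 0.90 and 3.41. The authors' deposited table gives no error for these values.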

How the data were processed

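Per the labels' protocols, RNA was purified on RNeasy columns from cultured cells. The submitters' processing notes name the build hg38, Salmon 0.12.0 and DESeq2 (no version); how they gave FPKM is not given in the sources used here. The authors deposited FPKM values and log2 fold changes against DMSO. Gene names and coordinates come from GENCODE 29 (56511 of 59939 identifiers). No reads or counts were used, so no counting intervals are given. The fragment scale rests on 9846 genes with 1 transcript of 800 to 6000 bases. Of their low values 70.1 to 76.3% lay within 0.15 of a whole fragment. The scale was chosen to make this share largest, so the 30% of a scale fixed beforehand is not its chance level. Libraries correlated at 0.9735 to 0.9933 on log2 values, and none were identical.

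The tests came from limma (version 3.58.1, R version 4.3.3) and used log2(FPKM + 0.5), with variances moderated by a trend and genes of at least 1 FPKM in at least 2 fitted libraries. Both days together used 8 libraries with day as covariate; single days and their difference used 4 group means over the same 8; the late comparison used 16. The labels do not state separate cultures for the libraries of a group, and the p-values then reflect the spread among libraries, which may be technical. Scripts were tested on simulated data. The members and gene lists were chosen with earlier results of these data known. Genes were named by rule (a symbol and a mean of at least 1 FPKM in the higher group; the largest called changes of each comparison, or the 3 smallest p where none was called; up to 4 called or 2 uncalled members of each list; the DNMT genes and UHRF1); any others were named after their values were seen. Lists are described by counts and medians without a test.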

Additional observations from a re-analysis of the deposited data

Results flagged for a closer look

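The change with GSK032 differed between the late days (4 and 6) and the early days (1 and 2), by limma's test of that difference, for the genes given here, which leave out the Y chromosome. IFI27, induced by interferon, had a late change larger by 5.92, PAGE2 by 5.65, PAGE2B by 5.04 and VCX by 5.10. PAGE2 and PAGE2B are near-identical cancer-testis genes and VCX has near-identical copies, so their levels are uncertain. On the other side stood TRDJ3 (-4.92), MIR210 (-4.37), RNY4P23 (-3.96), IGLC2 (-3.51) and MIR3651 (-3.48), most of them short genes.

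Between day 4 and day 2 the change was larger at day 4 for RNU7-103P (5.31), MIR634 (4.93), MIR185 (4.83), IFI27 (4.82) and AC233702.6 (4.73). It was smaller for RNA5SP246 (-4.06), RNU6-1309P (-4.04), MIR5693 (-3.53), MIR5197 (-3.28) and AC114781.5 (-3.27). Short RNAs, ribosomal RNAs and genes without annotation together took 58.2 to 64.5% of the FPKM sums of the early libraries.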

How the results depend on the processing

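Groups held 2 libraries, which limits every call, and without counts the depth per gene is known only as a scale. No named gene that was called changed sign under the alternatives run, while uncalled values near 0 did, and so did medians over all genes. Other called genes were not followed gene by gene. The filter on low values was applied anew to each fit without 1 library, so some genes were not tested in it. Of the 21 named genes called at day 2, 18 were tested in all 8 fits without 1 library and 9 of them kept the call in each; 3 were tested in 6 such fits and 2 of them kept it. Of the 19 tested under all 9 other alternatives, 17 kept it. The cause of the shifts below was not tested.

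For both days together, 14 genes were called higher and 1 lower with a pseudocount of 0.1, and 76 higher without short RNA types. With the spread of all 52 MV411 libraries, 172 were called higher and 10 lower. That fit used group means in place of day as a covariate, here and against DAC over both days. For day 1 the count called higher was 3 with a pseudocount of 0.1, 8 without a filter (1 lower), 2 with equal FPKM sums, 5 with median-ratio scaling, 30 with the spread of all 52 libraries (1 lower) and 7 without short RNA types. For day 2 it was 258 without a filter (34 lower), 309 with the spread of all libraries and 274 without short RNA types. For day 2 minus day 1 it was 0 with a pseudocount of 0.1, 6 with 1, 76 without a filter (14 lower), 3 with equal sums, 4 with median-ratio scaling, 121 with the spread of all libraries (4 lower) and 46 without short RNA types. For DMSO of day 2 against day 1, 2 were lower with a pseudocount of 0.1 and 1 higher with the spread of all libraries. Without a filter, 2 were higher and 1 lower for DMSO. The fits without short RNA types also left out ribosomal RNAs and genes without annotation. Among these was ENSG00000207643, the gene called at day 1.

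For GSK032 against DAC over both days, 25 were lower with a pseudocount of 0.1 and 10 with 1, 0 higher and 2 lower without a filter, 0 and 1 with equal sums, 16 and 30 with the spread of all libraries, 2 higher with median-ratio scaling and 12 higher without short RNA types. At day 2 alone these were 16 and 16 without a filter, 34 and 51 with the spread of all libraries and 20 and 27 without short RNA types. For day 4 minus day 2, 146 were lower with equal sums and 637 higher with median-ratio scaling, which put 76.5 and 75.5% of calls on the higher side against 61.3%. Against DAC that share was 0% with equal sums and 8.7% with median-ratio scaling, against 20%. The median day 2 change of all genes moved from -0.09 to 0.06 with equal sums and 0.02 with median-ratio scaling, and that of day 2 minus day 1 from -0.06 to 0.145 with equal sums.

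Leaving out 1 library gave 0 to 16 higher and 0 to 2 lower for both days, 0 to 2 and 0 to 1 for day 1, 14 to 138 and 2 to 14 for day 2, and 0 to 4 and 0 to 2 for their difference. It gave 0 to 1 and 0 to 3 against DAC, 0 to 1 and 0 to 0 at day 2 alone, 951 to 1106 and 591 to 642 for late minus early, 261 to 418 and 174 to 269 for day 4 minus day 2, and 0 to 2 and 0 to 1 for DMSO.

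The replicate numbers were not taken as pairs, as the labels do not tie them. Same-numbered GSK032 and DMSO libraries deviated together within a day (correlations 0.64 and 0.65 over genes) and less so across days (-0.066 to 0.14), while DAC of day 1 correlated with day 2 of DMSO, GSK032 and DAC at 0.48, 0.44 and 0.37. With the replicate block, 127 genes were called higher and 10 lower at day 2, 0 for the difference between days, and 7 higher against DAC. The KLF1 call was lost (adjusted p = 0.0501). With the replicate block within each day, 0 were called at day 1, 191 higher and 22 lower at day 2, and 0 for the difference between days. Median-ratio scaling, leaving out short RNA types, the block within each day, and the comparisons with DAC at day 2 alone and of day 4 with day 2 were chosen after seeing the data.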
